A study of Mus musculus with 32 samples.

Results

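The 10 genes described here encode ion channels, and they were followed in microglia sorted from a stab wound of the mouse cortex and from the equivalent place on the uninjured side. They were taken by symbol from a list of Kcnk13, Kcnk6, Kcnj2, Kcna3, Kcnn4, Trpm2, Trpv2, Clic1, Clic4 and Lrrc8d, and all 10 were found among the 55385 gene entries of the series. All 10 also passed the filter on low counts. The mice were adult C57BL/6 animals heterozygous for Cx3cr1CreER, in which Cx3cr1, the gene of the fractalkine receptor, drives a recombinase that tamoxifen activates, and both sides of the comparison carried it. From an age of 8 to 10 weeks they received tamoxifen (180 mg/kg on each of 5 days), which switched on the yellow fluorescent protein EYFP in microglia before the wound. EYFP-positive cells were sorted from wounded cortex and from the opposite, non-injured cortex of both sexes at days 1, 4, 7 and 14. The non-injured group is thus the other hemisphere of wounded mice and not tissue of unwounded mice. The recombinase acts in any cell with an active Cx3cr1 locus, and the labels do not say how long before the wound tamoxifen ended.

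Ion channels set the membrane voltage of microglia and the entry of calcium, and they move ions and water when a cell changes shape or volume. Two-pore-domain and inward rectifier potassium channels hold the resting voltage of these cells, while voltage-gated and calcium-activated potassium channels open on depolarization or a rise of calcium. Potassium leaving the cell is a known trigger of the NLRP3 inflammasome, which matures interleukin 1 beta, and TRP channels carry calcium and other cations in response to oxidative or physical stress. CLIC proteins occur both soluble and membrane-bound, and LRRC8 proteins assemble into the anion channel that opens on swelling.

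The members belong to families with different pores, and the codons of the selectivity filter show this for the potassium channels. The coding sequences were searched in frame, on the coding strand, for the codon pattern of that filter: a threonine codon, a codon with T in its middle, a glycine codon, any codon and a glycine codon. It occurred in 693 of 21559 mouse coding sequences (3.21%). Kcnn4, Kcna3 and Kcnj2 each held it at 1 site per chain, and the two-pore channel genes Kcnk13 and Kcnk6 each held it at 2 sites. Trpv2 also held it at 1 site (codons 599 to 603 of 756), and Trpm2, Clic1, Clic4 and Lrrc8d held it at none. The lines give 60 coding bases around the site of the 2 potassium channel genes that rose, of the inward rectifier and of both sites of Kcnk13, with the matched codons in capitals.
Kcnn4: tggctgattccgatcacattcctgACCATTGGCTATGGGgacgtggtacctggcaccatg
Kcna3: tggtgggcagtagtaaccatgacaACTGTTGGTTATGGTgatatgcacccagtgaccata
Kcnj2: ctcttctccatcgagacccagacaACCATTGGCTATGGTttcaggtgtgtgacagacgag
Kcnk13, first site: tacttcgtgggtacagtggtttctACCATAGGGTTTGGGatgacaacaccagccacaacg
Kcnk13, second site: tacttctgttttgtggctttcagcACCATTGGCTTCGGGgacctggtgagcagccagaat
The Kcnn4 window lies at chr7:24379174-24379233, the Kcna3 window at chr3:107037587-107037646 and the Kcnj2 window at chr11:111072183-111072242, all on the plus strand of GRCm38 and in coding exons of the GENCODE M21 annotation. The second Kcnk13 site lies at chr12:100061352-100061411 on the plus strand, and the first spans an intron. The windows differ widely. Over all 60 bases, capitals included, Kcnn4 and Kcna3 share 31, and the first and second sites of Kcnk13 share 23.

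Clic1 and Clic4 have no such filter. Their common mark is a glutaredoxin-like cysteine site near the start of the protein, and it was found in both as an in-frame cysteine codon (or another codon starting TG), a proline codon, a codon starting TT and a codon starting TC. It occurred in 67 of 21559 coding sequences (0.311%) and in 4 of 5 genes named Clic. The lines show 60 coding bases with the matched codons in capitals.
Clic1: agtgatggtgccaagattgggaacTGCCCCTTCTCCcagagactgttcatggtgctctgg
Clic4: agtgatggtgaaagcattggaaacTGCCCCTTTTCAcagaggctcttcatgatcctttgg
The Clic1 window lies at chr17:35052441-35052500 on the plus strand and the Clic4 window at chr4:135238906-135238965 on the minus strand (GRCm38). They are identical at 48 of 60 bases. How reads of the 2 paralogues were shared by the authors' quantification is not given in the sources used here.

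In the same annotation Kcna3 spans chr3:107036169-107038070, Clic4 chr4:135213969-135272814, Lrrc8d chr5:105699969-105832436, Kcnn4 chr7:24370263-24386690 and Kcnk6 chr7:29221926-29232515. Trpm2 spans chr10:77907722-77970563, Trpv2 chr11:62574486-62600515, Kcnj2 chr11:111066164-111076821, Kcnk13 chr12:99964499-100062682 and Clic1 chr17:35049966-35058749. Exons of Lrrc8d overlap the antisense gene Lrrc8dos, and exons of Trpm2 overlap the small nucleolar RNA genes Gm22394 and Gm22871. The library protocol does not keep the strand, so reads of Lrrc8d and its antisense partner cannot be told apart.

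Each of the 16 combinations of day, sex and side had 2 columns, called biological replicates in the series description, that differed by little more than counting noise (median chi-square per gene 0.475 to 0.639 against 0.455 for noise alone, and 31.5 to 113 between the sexes). The columns were summed, as 8 day-by-sex pairs of 1 injured and 1 non-injured library. Nothing in the labels ties a library to its animals, so p-values measure only the spread between these libraries. Depth was 20864031 to 55378880 counts, with 14720 to 40940 genes detected. The 8 microglia markers summed to 7678 to 37280 CPM (counts per 1000000 counts, with TMM-scaled library sizes) on the injured side and to 8481 to 67180 CPM on the other. The day 4 male non-injured library stood apart, with 25.7% mitochondrial counts and the highest summed neuron (2748 CPM), astrocyte (5914 CPM) and oligodendrocyte lineage (4489 CPM) markers of the 16. Calls of the members that are lost without its pair, and counts of the channel, pump and inflammasome lists, are given with and without it. Counts of the cell type marker lists were taken with it only.

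The 10 genes differed widely in level. On the deposited TPM scale, which accounts for length, Clic1 was the highest member in 8 of 8 non-injured libraries (median 440.5 TPM, range 74.7 to 758). Trpv2 followed at a median of 77.9 TPM, Kcnk13 at 58.8, Trpm2 at 34.0, Kcnk6 at 21.04, Clic4 at 19.4, Lrrc8d at 17.7, Kcnn4 at 7.69, Kcnj2 at 2.49 and Kcna3 at 0.940. Several neighbours in this order did not separate. Trpv2 exceeded Kcnk13 in 6 of 8 libraries, Kcnk6 exceeded Clic4 in 4 of 8, Clic4 exceeded Lrrc8d in 4 of 8 and Kcnn4 exceeded Kcnj2 in 4 of 8. On the injured side Clic1 was again highest in 8 of 8 libraries (median 431 TPM), and Clic4 (54.4 TPM) and Kcnn4 (25.8 TPM) stood at places 3 and 5. Trpv2 exceeded Clic4 in only 4 of 8 injured libraries, and Kcna3 (2.41 TPM) exceeded Kcnj2 (2.15 TPM) in 5 of 8.

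**Figure D1:**
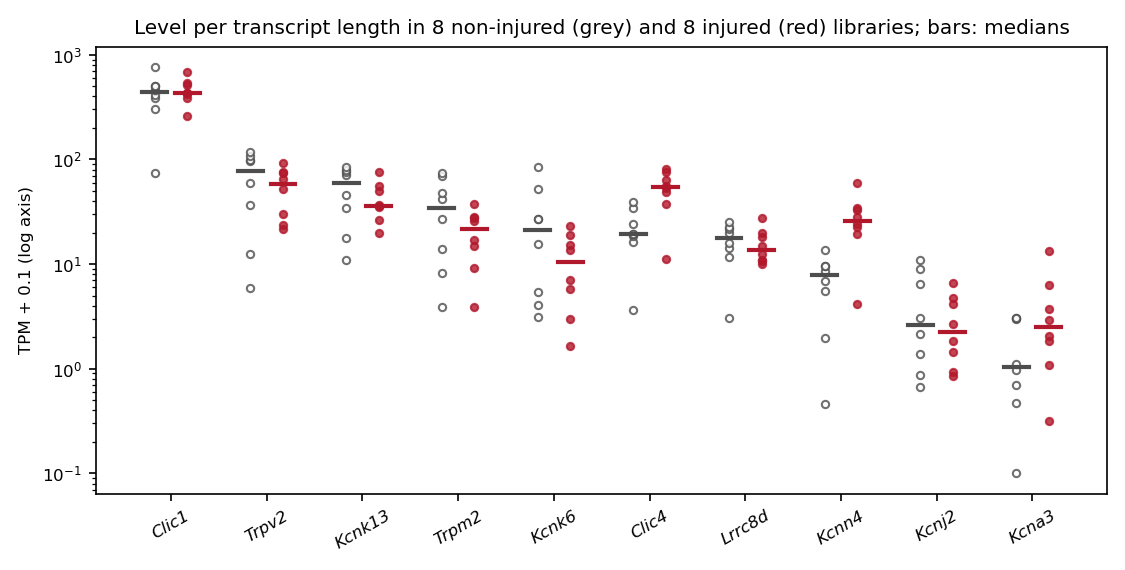
Level of each gene in TPM (plus 0.1, log axis) in the 8 non-injured libraries (open grey points) and the 8 injured libraries (red points), ordered by the non-injured median, with bars at the medians. Clic1 lies highest on both sides, and Clic4 and Kcnn4 have higher medians on the injured side.

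The main comparison asked which channel genes differed at the wound, as the mean of the effects at the 4 days. Kcnn4, Clic4, Kcna3 and Clic1 rose, and 0 of 10 members fell. In edgeR, 4 of 10 members were called at an adjusted p under 0.05 (quasi-likelihood test, Benjamini-Hochberg adjustment over 28597 genes, which holds for each adjusted p below unless another tool is named). Of all genes tested, 15.7% were called, 7.76% higher and 7.96% lower. The median log2 change of the 10 members was 0.47, and that of all genes tested was -0.32. The shift of the members depends on the scale. In limma on log2(TPM + 1) the change was below 0 for Kcnk13, Kcnk6, Kcnj2, Trpm2 and Lrrc8d, and above 0 for the other members. In 8 of 8 pairs the wound library exceeded its partner for Kcnn4, Clic4 and Kcna3, as it did for 5.11% of all genes tested. For 0 of 10 members did all 8 injured libraries lie above all 8 non-injured ones, a separation that 0.234% of all genes showed. The share of higher genes among all calls depends on the scale. It was 49.4% here (2219 higher, 2277 lower) and 24.98% in limma on log2(TPM + 1) (1092 higher, 3279 lower). In bulk RNA of sorted cells, more RNA per cell and more cells that carry a transcript cannot be told apart.

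**Figure D2:**
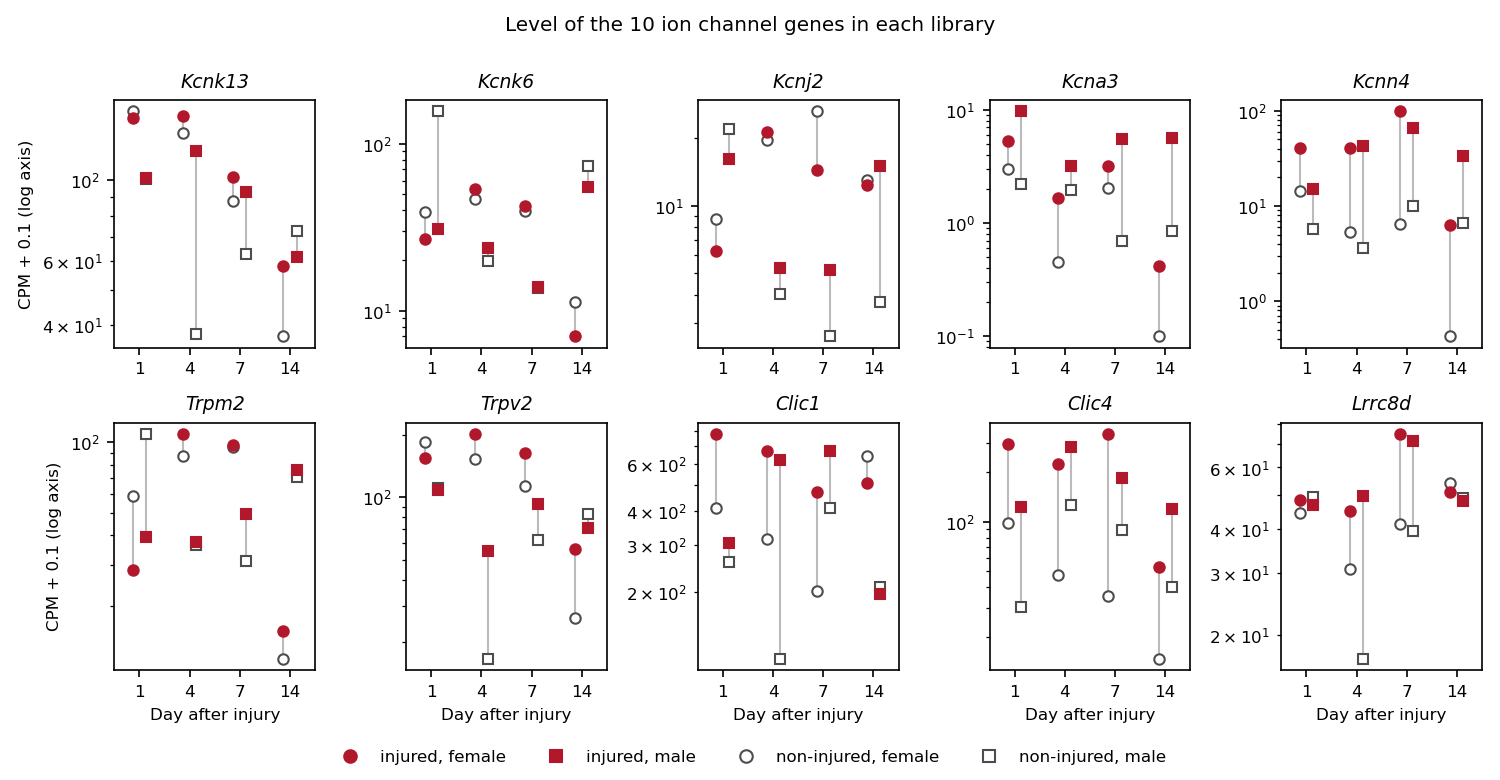
Each panel shows 1 gene, with CPM plus 0.1 on a log axis against the day after injury. Filled red points are injured libraries, open points non-injured ones, circles females, squares males, and a grey line joins the 2 libraries of a pair. For Kcnn4, Clic4 and Kcna3 the injured library lies above its partner in all 8 pairs.

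Kcnn4, which encodes the calcium-activated potassium channel KCa3.1, had the largest change. At the wound its 8 libraries ranged from 6.20 to 98.3 CPM with a median of 40.7, and on the non-injured side from 0.329 to 14.1 CPM with a median of 5.98. Of the injured libraries 7 lay above every non-injured one, and the exception was the day 14 female library at 6.20 CPM, whose partner was the lowest of all. The mean was 42.9 ± 28.9 CPM at the wound against 6.45 ± 4.13 CPM (SD, n = 8), a fitted rise of 2.70 on the log2 scale (SE 0.27, adjusted p = 0.000419), or 6.51-fold. Within pairs the ratio ran from 2.66-fold (day 1 male) to 15.4-fold (day 7 female, 98.3 against 6.38 CPM), leaving out the day 14 female pair, whose non-injured library held 8 counts. The call held under all 15 alternatives run, with adjusted p up to 0.0158, and without the day 4 male pair the rise was 2.60 (adjusted p = 0.000241).

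Kcna3, which encodes the voltage-gated potassium channel Kv1.3, rose from a low level. It ranged from 0.314 to 9.57 CPM at the wound (median 4.12) and from 0 to 2.88 CPM away from it (median 1.31), with 0 to 389 counts per library. The day 1 male wound library was the highest and the day 14 female pair the lowest on both sides, with 8 counts against 0. Of 8 injured libraries 6 lay above all non-injured ones. The mean was 4.21 ± 2.87 against 1.31 ± 1.02 CPM (SD, n = 8), a rise of 1.90 on the log2 scale (SE 0.46, adjusted p = 0.0227). The call was lost in 8 of 15 alternatives: in both fits on TPM, without the pair block, and without any 1 of the day 1 female, day 1 male, day 4 female, day 7 male or day 14 male pairs (adjusted p 0.0675 to 0.220).

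The remaining potassium channel genes were not called. Kcnj2, which encodes the inward rectifier Kir2.1, ranged from 5.06 to 21.2 CPM at the wound (median 13.3) and from 2.53 to 26.1 CPM away from it (median 10.7). Its groups overlapped fully, it was higher in 4 of 8 pairs, and its log2 change was 0.15 (SE 0.32, adjusted p = 0.898). Kcnk13, which encodes THIK-1, the main background potassium conductance of resting microglia, ranged from 58.2 to 150 CPM at the wound (median 101) and from 37.2 to 154 CPM away from it (median 80.0). Its log2 change was 0.36 (SE 0.22, adjusted p = 0.321), with 6 of 8 pairs higher in CPM and 2 of 8 higher in TPM. In limma on log2(TPM + 1) the change was -0.14 for Kcnk13 and -0.26 for Kcnj2, so neither has a direction that holds on both scales.

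Kcnk6, which encodes the two-pore channel TWIK-2, ranged from 6.91 to 54.7 CPM at the wound (median 28.9) and from 11.2 to 156 CPM away from it (median 38.9). The day 1 male non-injured library, at 156 CPM, was the highest of the 16, and 4 of 8 pairs were lower at the wound. The mean was 31.6 ± 17.5 against 49.7 ± 47.5 CPM (SD, n = 8), with a log2 change of -0.42 (SE 0.24, adjusted p = 0.292). The call depended on the scale and tool: Kcnk6 fell in limma on log2(TPM + 1) (log2 -0.87, adjusted p = 0.0229), with 1 of 8 pairs higher in TPM, and in DESeq2 (log2 -0.56, adjusted p = 0.0454).

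The TRP channel genes were not called. Trpm2, which encodes a cation channel opened by ADP-ribose and oxidative stress, ranged from 15.5 to 108 CPM at the wound (median 44.3) and from 11.7 to 108 CPM away from it (median 64.7). The groups overlapped over nearly their whole range, and the log2 change was -0.12 (SE 0.18, adjusted p = 0.782), with 6 of 8 pairs higher in CPM and 2 of 8 in TPM. Trpv2, a calcium-permeable cation channel gene of macrophages, ranged from 55.2 to 202 CPM at the wound (median 100.4) and from 16.6 to 184 CPM away from it (median 97.1). It was higher in 5 of 8 pairs in CPM and in 2 of 8 in TPM (log2 0.47, SE 0.22, adjusted p = 0.206).

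Both CLIC family genes rose, Clic4 more than Clic1. Clic4, which encodes a protein that moves to the nucleus and membranes of activated macrophages, ranged from 52.8 to 341 CPM at the wound (median 203.5) and from 14.6 to 125 CPM away from it (median 43.6). Of 8 injured libraries 5 lay above every non-injured one, and the day 14 female pair was lowest on both sides. The mean was 202.6 ± 100.5 against 60.1 ± 39.2 CPM (SD, n = 8), a rise of 1.84 on the log2 scale (SE 0.27, adjusted p = 0.00239), or 3.58-fold. Pair ratios ran from 2.05-fold (day 7 male) to 9.71-fold (day 7 female). Its call held under all 15 alternatives (adjusted p up to 0.0351), and without the day 4 male pair the rise was 1.97 (adjusted p = 0.00096).

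Clic1, the most abundant member, ranged from 195.7 to 779 CPM at the wound (median 566.5) and from 112 to 645 CPM away from it (median 286). Of 8 injured libraries 3 lay above all non-injured ones, 6 of 8 pairs were higher at the wound, and both day 14 pairs were lower. The mean was 529.1 ± 198.9 against 320.2 ± 167.2 CPM (SD, n = 8), a rise of 0.78 on the log2 scale (SE 0.19, adjusted p = 0.0247). The call was lost in 10 of 15 alternatives, among them both fits on TPM (log2 0.27, adjusted p = 0.490 with 1 TPM added), the fit without the pair block, and the omission of any 1 pair other than day 4 female (adjusted p 0.0540 to 0.140). Without the day 4 male pair it was 0.61 (adjusted p = 0.0540).

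Lrrc8d, a subunit gene of the volume-regulated anion channel that lets organic solutes pass, varied least at the wound. It ranged from 45.1 to 74.7 CPM there (median 49.0) and from 17.02 to 54.0 CPM away from it (median 42.9). Both day 7 wound libraries lay above every non-injured one, and the lowest library was the day 4 male non-injured one. Its log2 change was 0.47 (SE 0.19, adjusted p = 0.143), with 5 of 8 pairs higher in CPM and 4 of 8 in TPM, and in limma on log2(TPM + 1) the change was near 0 (-0.0038).

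**Figure D3:**
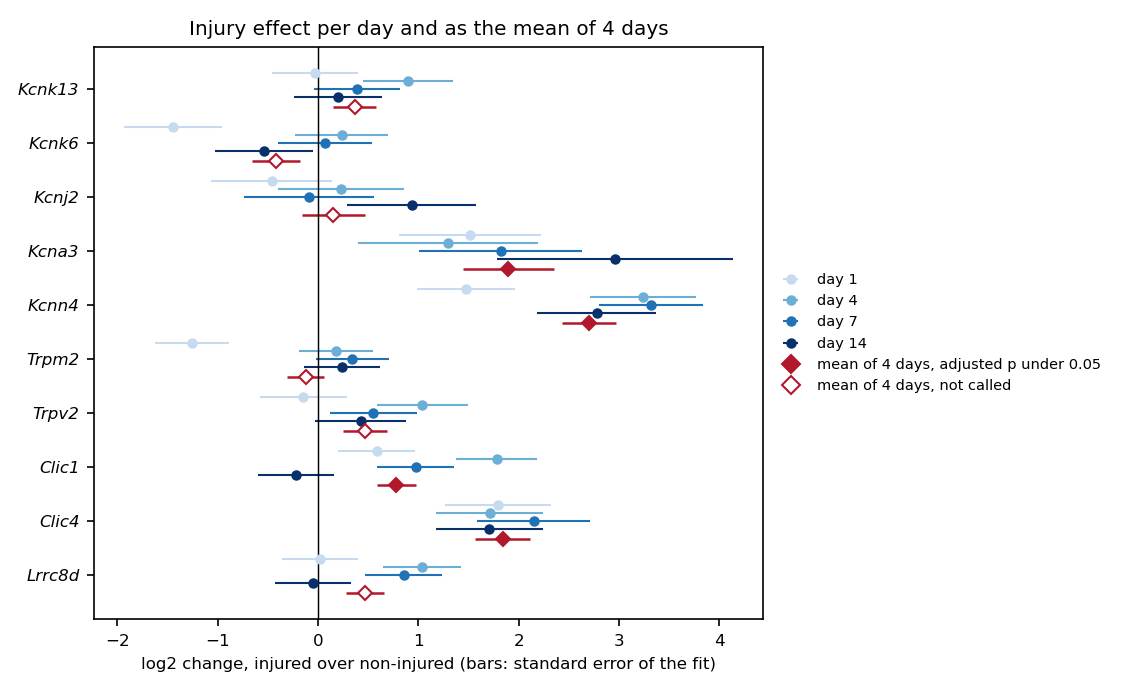
The log2 change of each gene, injured over non-injured, at days 1, 4, 7 and 14 (blue shades) and as the mean of the 4 days (red diamonds, filled where the adjusted p was under 0.05). Bars are standard errors of the fit. Kcnn4 and Clic4 lie above 0 at every day, and Kcnk6 and Trpm2 lie below 0 at day 1 and near 0 at days 4 and 7.

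At day 1, 0 of 10 members were called, where 1.05% of all genes were (smallest adjusted p of a member 0.154). An unadjusted p under 0.05 was reached by 4 members and by 4400 of 28597 genes. Of these members Kcnn4 and Clic4 had values above 0, and Kcnk6 and Trpm2 had values below 0. DESeq2 called 4 members and 2463 of 28597 genes at this day. Kcnk6 lay at 26.9 and 30.9 CPM in the female and male wound libraries against 38.6 and 156 CPM (log2 -1.44, SE 0.49, adjusted p = 0.209). Trpm2 lay at 28.4 and 39.2 CPM against 58.7 and 108 CPM (log2 -1.26, SE 0.37, adjusted p = 0.154). Both wound libraries were lower for both genes, the male pair more so, by 5.05-fold for Kcnk6 and 2.76-fold for Trpm2. Clic4 lay at 294 and 122 CPM against 98.6 and 30.3 CPM (log2 1.79, SE 0.53, adjusted p = 0.154).

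At day 4, Kcnn4 alone was called, where 2.04% of all genes were. It lay at 40.6 CPM (female) and 42.3 CPM (male) at the wound against 5.29 and 3.49 CPM, a rise of 3.24 on the log2 scale (SE 0.53, adjusted p = 0.0247). All 10 members had a log2 change above 0 in this fit, with a median of 1.04, where the median of all genes was -0.20. That direction does not hold on every scaling. In TPM the day 4 female wound library was below its partner for Kcnk13, Kcnk6, Kcnj2, Trpm2, Trpv2 and Lrrc8d, with ratios of 0.567 for Kcnk6 to 0.928 for Lrrc8d. In the authors' deposited table the day 4 log2 fold change was -0.105 for Kcnk6, -0.191 for Kcnj2 and -0.119 for Trpm2. Clic1 lay at 671 and 623 CPM against 314 and 112 CPM (log2 1.78, SE 0.40, adjusted p = 0.0613), and the day 4 male non-injured library was its lowest of the 16. That library was also the lowest of the 16 for Trpv2 (16.6 against 55.2 CPM at the wound) and Lrrc8d (17.02 against 49.7 CPM), and it is the one that stands apart. The Kcnn4 call at day 4 was lost in 6 of 15 alternatives: without the pair block and without any 1 of the day 1 female, day 1 male, day 4 male, day 7 female or day 7 male pairs (adjusted p 0.0580 to 0.370). Without the day 4 male pair its rise was 2.95.

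At day 7, Kcnn4 was again the called member, where 0.374% of all genes were. Its libraries at the wound held 98.3 CPM (female) and 66.5 CPM (male) against 6.38 and 9.99 CPM, a rise of 3.32 on the log2 scale (SE 0.52, adjusted p = 0.0433). The call was lost in 9 of 15 alternatives: with no filter, in both fits on TPM, without the pair block, and without any 1 of the day 1 female, day 1 male, day 7 female, day 7 male or day 14 female pairs (adjusted p 0.0534 to 0.513). Clic4 lay at 341 and 183 CPM against 35.1 and 89.3 CPM (log2 2.15, SE 0.56, adjusted p = 0.114), the female pair with the larger ratio. Lrrc8d lay at 74.7 and 71.4 CPM against 41.2 and 39.5 CPM (log2 0.86, SE 0.38, adjusted p = 0.262).

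At day 14, 0 of 10 members were called, where 0.0594% of all genes were. An unadjusted p under 0.05 was reached by 3 members and by 4723 of 28597 genes. DESeq2 called 2 members and 2115 of 28597 genes. Kcnn4 lay at 6.20 and 33.5 CPM against 0.329 and 6.45 CPM (log2 2.78, SE 0.59, adjusted p = 0.112). Clic4 lay at 52.8 and 119 CPM against 14.6 and 40.0 CPM (log2 1.71, SE 0.54, adjusted p = 0.206). Clic1 lay at 510 and 196 CPM against 645 and 209 CPM, lower in both pairs (log2 -0.22, SE 0.38, adjusted p = 0.807).

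Whether the injury effect differed between the days was tested directly. In edgeR 0 of 10 members and 0 of 28597 genes (0%) were called (smallest adjusted p of a member 0.675), with 2 members and 1819 genes at an unadjusted p under 0.05, and DESeq2 called 225 genes, 0 of them members. The day 1 lows of Kcnk6 and Trpm2 are therefore not shown to differ from their values at other days. The sexes were compared in a separate joint fit of all 16 libraries, with an injury effect for each sex. Its spread is the variation of the injury effect over days within a sex, pooled over both sexes. In edgeR 0 of 10 members and 0 of 28597 genes (0%) were called for a sex difference. An unadjusted p under 0.05 was reached by 0 members and 2737 genes. DESeq2 called 84 genes, 0 of them members. From that joint edgeR fit, Kcnn4 (log2 2.93, SE 0.49, adjusted p = 0.00198) and Clic4 (log2 2.24, SE 0.34, adjusted p = 0.00116) rose in the 4 female pairs. Of all genes, 8.33% were called there. In the 4 male pairs of the same fit Kcnn4 (log2 2.51, SE 0.46, adjusted p = 0.00202), Clic4 (log2 1.45, SE 0.33, adjusted p = 0.0097) and Kcna3 (log2 2.21, SE 0.53, adjusted p = 0.0118) rose. Of all genes, 9.21% were called in these. The sex difference of Kcna3 was -1.09 (female minus male, log2, SE 0.81, adjusted p = 0.643) and that of Clic4 was 0.79 (SE 0.46, adjusted p = 0.567).

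Among the 8 non-injured libraries 0 of 10 members differed between days (0% of all genes called) or between the sexes (0.0284% called), with 0 members at an unadjusted p under 0.05 in edgeR and 0 called in DESeq2. The spread there was wide. The highest non-injured library was 42.9-fold above the lowest for Kcnn4, whose lowest held 8 counts, and for Kcna3 the lowest was at 0. The ratio was 4.15-fold for Kcnk13, 5.74-fold for Clic1, 8.58-fold for Clic4, 11.1-fold for Trpv2 and 14.0-fold for Kcnk6, while for Lrrc8d it was 3.17-fold. The female minus male difference was largest for Kcnj2 (log2 1.66, SE 0.89, adjusted p = 0.799).

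The authors' own comparisons per day use their scaling and columns, and their values are given beside the fit. In the authors' deposited table Kcnn4 had an adjusted p of 0.131 at day 1, 0.000256 at day 4, 0.000514 at day 7 and 0.00365 at day 14. In the authors' deposited table Clic4 had 0.0125, 0.0733, 0.0142 and 0.017 at the same days. The authors' deposited table also puts Clic1 at 0.00367 and Lrrc8d at 0.00324 at day 4, and Kcna3 at 0.0147 at day 14. For Kcnk6 at day 1 the authors' deposited table gives a log2 fold change of -1.69 with an adjusted p of 0.102.

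Other channel genes were examined as lists that hold none of the 10 members. Of all genes tested, 15.7% were called for the mean of 4 days, 7.76% higher and 7.96% lower. Of 83 tested potassium channel genes, 0 rose, 42 fell and 41 were not called (median log2 -2.57, against -0.32 for all genes). Kcnn4 and Kcna3, which rose, were left out of this list as members, so its count of 0 rises is partly set by that choice. Kcnf1, a silent voltage-gated subunit gene, fell by 4.84 on the log2 scale (SE 0.64), with a mean of 0.42 CPM at the wound against 9.77 CPM. Kcnt1, a sodium-activated channel gene, fell by 4.33 (SE 0.76, 0.45 against 9.62 CPM). Kcnj9, a G protein-gated rectifier gene, fell by 3.56 (SE 0.65, 1.33 against 18.5 CPM). Kcnh3, a voltage-gated channel gene, fell by 3.503 (SE 0.67, 1.28 against 19.9 CPM). Each reached an average of 5 CPM only through the non-injured side, where Kcnf1 held up to 59.2 CPM. Neuron markers moved with this list, and 8 of 8 fell. Their summed level was 8.49 to 128 CPM at the wound against 50.8 to 2748 CPM, lower in 8 of 8 pairs. Without the day 4 male non-injured library the highest non-injured sum was 649 CPM. The number that fell depends on single pairs: it was 15 of 86 without the day 7 male pair, 19 of 86 without day 1 female, 21 of 83 without day 14 male, 23 of 86 without day 4 male and 27 of 86 without day 1 male, with 0 rises in each. In limma on log2(TPM + 1) 28 fell and the median was -0.64. The part of neuronal RNA in these falls was not tested.

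Of 23 tested TRP channel genes 2 rose and 1 fell (median log2 -0.62). Mcoln3, a lysosomal cation channel gene, had a mean of 23.8 CPM in wound libraries and of 1.02 CPM in the others. Its log2 change was 5.2 (SE 1.12, adjusted p = 0.0129), with 7 of 8 pairs higher. Trpm3 fell by 1.68 (SE 0.34), with a mean of 2.45 CPM in wound libraries and of 8.27 CPM in the others. Mcoln3 reached the average of 5 CPM needed to be named only through the wound side, and Trpm3 only through the non-injured side. The TRP count rests on few genes: without the day 4 male pair 0 of 24 were called, and without any other 1 pair 0 to 2 rose and 0 to 2 fell. The TRP median was -0.0043 without the day 14 male pair. Of 30 chloride and anion channel genes 2 rose and 5 fell (23.3% called, median log2 -0.23). Ttyh2 rose by 1.85 (SE 0.19, adjusted p = 0.00059) and Clcn7, a lysosomal chloride-proton exchanger gene, by 0.79 (SE 0.20), both in 8 of 8 pairs, while Ttyh1 fell by 2.16 (SE 0.51). Of this list 1 rose and 1 fell without the day 1 female, day 1 male or day 7 male pair, 1 rose and 3 fell without day 7 female, and 2 rose and 3 fell without day 4 female, day 4 male or day 14 male. Among partners of the members, Lrrc8a, the obligatory subunit gene of the volume-regulated channel, had a mean of 293.6 CPM in wound libraries and of 318.3 CPM in the others (log2 -0.12, SE 0.18, adjusted p = 0.776). Lrrc8b (log2 -0.03, SE 0.36, adjusted p = 1) and Lrrc8c (log2 0.58, SE 0.29, adjusted p = 0.229) were not called either, and Clic5 fell by 2.29 (SE 0.44).

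Of 28 genes for calcium entry, ligand-gated and proton channels 1 rose and 5 fell (median log2 -0.41). The called share was 21.4%, against 15.7% of all genes. P2rx4, an ATP-gated cation channel gene of microglia, rose by 1.60 (SE 0.20, adjusted p = 0.00128, 8 of 8 pairs). Ryr2 fell by 2.33 (SE 0.42), Itpr1 by 2.07 (SE 0.42) and Tpcn1 by 0.96 (SE 0.22), genes of calcium release from internal stores. The mean of Ryr2 was 2.80 CPM at the wound against 12.4 CPM, so it reached an average of 5 CPM only through the non-injured side. Of this list 0 fell without the day 7 male pair, 1 fell without day 1 female and 3 fell without day 1 male or day 7 female, with 1 rise in each. Without the day 14 female pair 3 rose and 4 fell, and without day 4 male 2 rose and 5 fell. Of 51 ion pump and exchanger genes 3 rose and 11 fell (27.45% called, median log2 -0.41). Among those with a mean of at least 5 CPM, the falls were led by the neuronal chloride exporter gene Slc12a5 (fell by 3.88, SE 0.38), then Atp2b2 (fell by 3.37, SE 0.32), Slc4a3 (fell by 2.96, SE 0.59) and Atp1b1 (fell by 2.40, SE 0.49). At the wound Slc12a5 averaged 2.23 CPM against 46.96 CPM, and Slc4a3 averaged 1.49 CPM against 17.4 CPM. Both reached an average of 5 CPM only through the non-injured side. Of the pumps and exchangers 0 rose in both TPM fits and without the pair block. Without the day 7 male pair 1 rose and 3 fell, without day 1 female 2 and 4, without day 1 male 1 and 5, without day 4 male 2 and 7, without day 14 male 4 and 7, without day 7 female 1 and 8, and without day 4 female 1 and 10. The neuron markers, of which 8 of 8 fell with a sum lower in 8 of 8 pairs, moved with the falls in both lists, and their part was not tested.

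Of 8 inflammasome genes 4 rose and 0 fell (median log2 0.72), where 7.76% of all genes rose and 7.96% fell. The count depends on scale and on single pairs. In limma 1 rose and 1 fell on log2(TPM + 1) (median 0.21), and 2 rose and 1 fell on log2(TPM + 0.1). Without the pair block 1 rose. Without the day 1 female, day 7 female or day 7 male pair 1 rose, without day 1 male 2 rose, and without day 4 male, day 14 female or day 14 male 3 rose, with 0 falls in each. Il1b, the interleukin 1 beta gene, had a mean of 112 CPM in wound libraries and of 12.3 CPM in the others, and Casp1, Casp4 and Pycard rose by 0.94 (SE 0.22), 0.90 (SE 0.25) and 0.86 (SE 0.18). Nlrp3, the sensor gene, was at 16.2 against 12.7 CPM (log2 0.35, SE 0.33, adjusted p = 0.561). Monocyte markers moved with this list (7 of 8 rose, with a sum higher in 8 of 8 pairs), and their part was not tested.

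**Figure D4:**
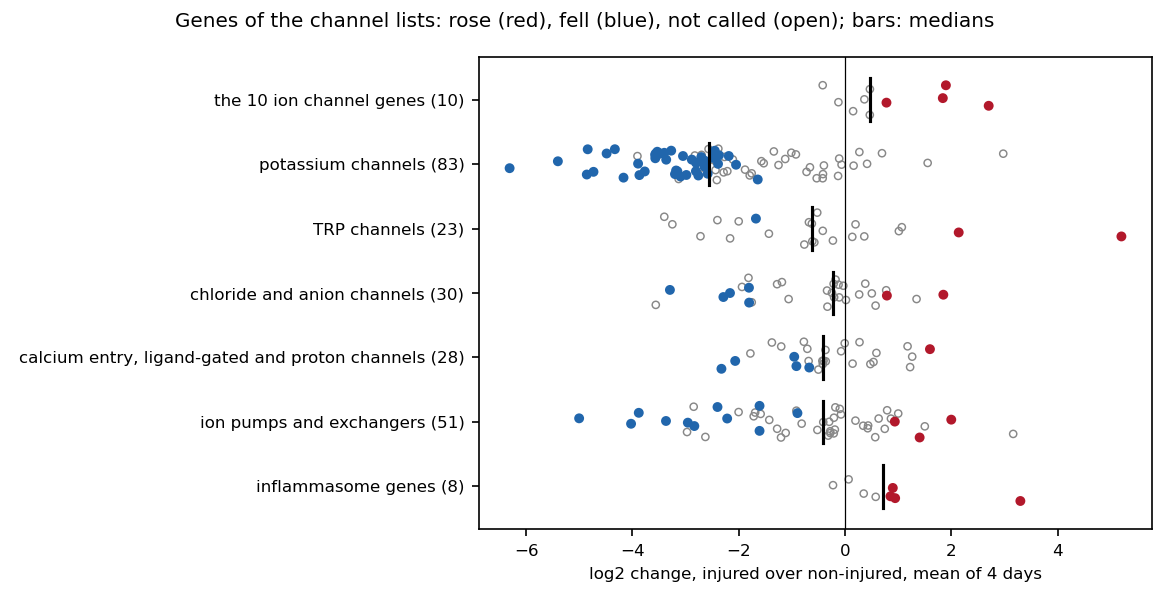
Log2 change, injured over non-injured, as the mean of the 4 days, for the 10 channel genes and for each list of other channel, pump and inflammasome genes, with the number tested in brackets. Red points rose, blue points fell, open points were not called, and bars are medians. The potassium channel list lies to the left, with its median at -2.57.

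Markers of other cell types moved with the side of the comparison. Of 8 microglia markers 5 fell and 1 rose, where 7.96% of all genes fell and 7.76% rose. Of 8 monocyte markers 7 rose, and their sum was 177 to 2015 CPM at the wound against 4.23 to 115 CPM, higher in 8 of 8 pairs as for Kcnn4, Clic4 and Kcna3. Of 8 neutrophil markers 6 rose (sum 8.44 to 317 CPM against 0.0822 to 9.81 CPM), while Ly6g stayed under 1 CPM in all 16 libraries. Of 7 border-associated macrophage markers 3 rose (sum 90.6 to 3458 CPM against 19.9 to 655 CPM), and of 8 T and NK cell markers 3 rose (5.34 to 20.9 CPM against 0 to 19.5 CPM). Endothelial and mural markers went the other way: 5 of 8 fell and 0 rose, with a sum higher in 0 of 8 pairs (44.9 to 160 CPM against 123 to 679 CPM). Astrocyte markers fell in 3 of 8 cases and rose in 0, with a sum higher in 3 of 8 pairs. For the oligodendrocyte lineage 3 of 8 fell and 1 rose, with a sum higher in 2 of 8 pairs. No marker of any list was at 0 in all 16 libraries. The part of any of these cell types in the rises of Kcnn4, Clic4, Kcna3 and Clic1 was not tested. The day 14 female non-injured library had the lowest monocyte sum and the lowest Kcnn4, Clic4 and Kcna3 of the 16. It also had the highest microglia marker sum (67180 CPM), and 14772 genes detected, where the lowest of the 16 had 14720. The day 4 female wound library had the highest monocyte sum at 2015 CPM, with Fn1 alone at 1849 CPM, and held 40.6 CPM of Kcnn4.

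**Figure D5:**
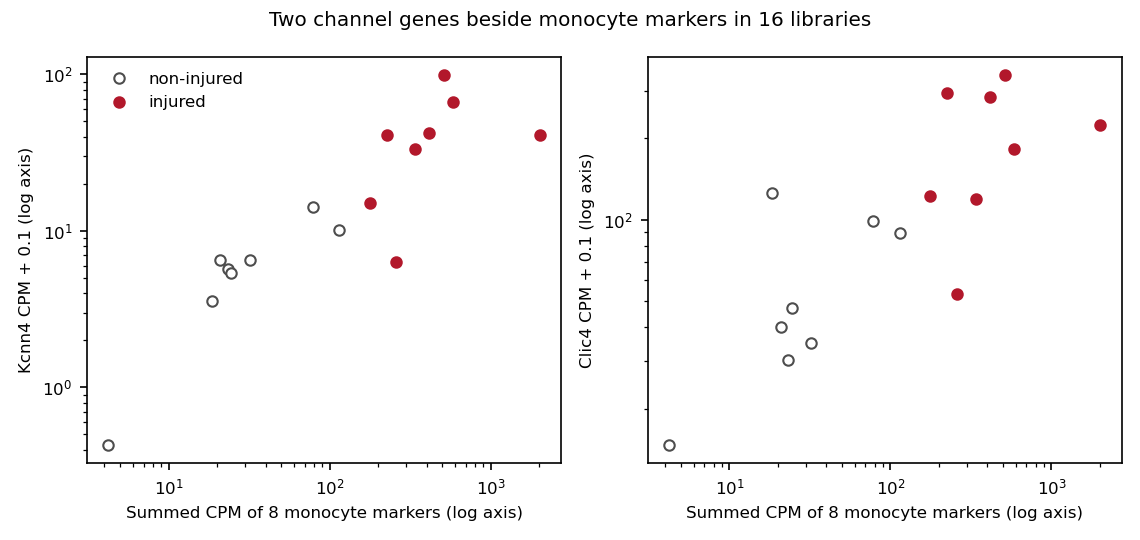
CPM (plus 0.1, log axis) of Kcnn4 and Clic4 against the summed CPM of 8 monocyte markers (log axis) in 16 libraries, open points non-injured and red points injured. The injured libraries lie at sums of 177 to 2015 CPM and the non-injured ones at 4.23 to 115 CPM.

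The genes whose pattern was most like each member were taken by Pearson's r of log2(CPM + 1) over the 16 libraries, which share days, sexes and sides, among 8664 protein-coding genes that reached 10 CPM on average. Kcnn4 was closest to Ninj1 (r = 0.97) and Pstpip1 (0.95), Clic4 to Irf7 (0.95) and Mrpl54 (0.93), and Clic1 to Pycard (0.97) and Tmem219 (0.96). Kcnk13 was closest to Nagpa (0.93) and Aaas (0.91), Kcnk6 to Mlxip (0.90) and Mrc2 (0.90), Trpm2 to B3galt4 (0.94) and Mfng (0.93), and Trpv2 to Ccnt1 (0.93) and Wdfy4 (0.93). The values were lower for Kcnj2 (Rbm6, 0.83, and Atp8a1, 0.82), Kcna3 (Fam129b, 0.80, and Cdt1, 0.80) and Lrrc8d (Fnip2, 0.88, and Cd84, 0.83). Between members the highest values were those of Kcnk13 with Trpv2 (0.89), Kcnn4 with Clic4 (0.89) and Kcnk6 with Trpm2 (0.84), and the lowest was that of Kcnk6 with Clic1 (-0.38).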

How the data were processed

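Polyadenylated RNA of sorted microglia was made into cDNA with SMART-Seq v4 and into Nextera XT libraries, per the labels' protocols. Salmon 1.0.0 and DESeq2 1.26.0 are listed in the submitters' processing notes, and no source used here gives the build. The authors deposited expected counts per gene for 55385 versioned Ensembl IDs (54487 of them in GENCODE M21, used for positions), TPM values, and per day a log2 fold change with its adjusted p-value, per the file headers. All 32 count columns were used (0 left out). The members and lists were chosen with earlier results of these data known.

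The 2 columns of a group were summed and rounded. Same-numbered columns of both sides deviated with correlations of -0.019 to 0.066 across genes. The test was edgeR 4.0.16 under R 4.3.3 (TMM, filterByExpr with a minimum count of 10, which left 28597 genes), with 8 pair means and 4 day effects (4 residual and 5.32 prior degrees of freedom), so the spread is the difference of the sexes within a day. The sex fit had 6 and the non-injured fit (24622 genes) 3 residual degrees of freedom. Each standard error is the absolute log2 change divided by the root of F. On simulated data (22617 genes, mean of 4 days), 74% of genes changed by 1 and 100% of those changed by 2 on the log2 scale were recovered. There 4.92% of calls were false. The simulation gave every gene the same spread beyond counting noise, and the same effect at all days and in both sexes. Only genes averaging at least 5 CPM were changed, a level that Kcna3 did not reach. These shares therefore need not hold for the real libraries. Alternatives were median-ratio factors, no filter, DESeq2 1.42.0, limma 3.58.1 on log2(TPM + 1) and log2(TPM + 0.1), no pair block, 32 separate columns, and leaving out each pair. Named genes were all 10 members, from each other list up to 4 called genes by size of the mean effect at an average of at least 5 CPM, LRRC8 and CLIC partners, and the 2 genes most like each member. Nlrp3 and Ly6g were named after their values were seen. Codon patterns were searched in 1 principal transcript per gene.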

Additional observations from a re-analysis of the deposited data

How the results depend on the processing

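For the mean of 4 days, 4 members were called, and all 4 rose. The same 4 rose with median-ratio factors, without a filter and in DESeq2, where Kcnk6 was called as a fall. In both limma fits on TPM Kcnn4 and Clic4 rose, Kcnk6 fell, and Kcna3 and Clic1 were not called. Without the pair block 2 rose and 0 fell. When 1 pair was left out 2 to 3 rose and 0 fell, where the lone pair of that day is assumed to vary like the others. Kcnn4 and Clic4 were called in each of these. Over all genes the count was 4496, and ran from 1517 to 4054 with 1 pair left out and from 2097 to 12440 elsewhere. The replicate numbers share only a number across sides. The 32 columns were also fitted as separate samples with the replicate block, which takes counting noise for the spread between animals. There 7 members were called for the mean (5 rose, 2 fell), and 5, 6, 5 and 3 at days 1, 4, 7 and 14. For the difference between days 5 members were called, and for the sex difference 1. Of 22980 genes that fit called 12440 for the mean, and 8197, 7672, 11210 and 8501 at the same days. It called 9167 genes for the difference between days and 3266 for the sex difference. DESeq2 called 2463, 1876, 2136 and 2115 of 28597 genes at days 1, 4, 7 and 14. At day 1 it called 4 members, against 0. At day 4, against 1, DESeq2 called 3, the fit without the pair block 0, and fits without 1 pair 0 to 2. At day 7, against 1, DESeq2 called 2, no filter 0, both TPM fits 0, no pair block 0, and fits without 1 pair 0 to 1. At day 14, against 0, DESeq2 called 2 and limma on log2(TPM + 0.1) called 1, the latter with 256 of 28597 genes. Directions reversed in log2(TPM + 1) and log2(TPM + 0.1) for Kcnk13 (-0.14 and -0.14) and Kcnj2 (-0.26 and -0.27), in log2(TPM + 1) for Lrrc8d (-0.0038), and for Kcnj2 without the day 14 male pair (-0.082) or the day 7 male pair (-0.033), in a range of -0.082 to 0.44 over the fits without 1 pair. The cause was not tested. The median log2 change of all genes was -0.32 with TMM, -0.44 with median-ratio factors, and -0.17 and -0.41 on the TPM scales. All-gene counts per day were 301, 584, 107 and 17 at days 1, 4, 7 and 14, with 0 to 771, 0 to 577, 0 to 632 and 0 to 146 when 1 pair was left out, and 12 to 8197, 19 to 7672, 0 to 11210 and 2 to 8501 under the other settings. For the day difference the main count of 0 genes became 0 to 1 without 1 pair and 0 to 9167 otherwise, and for the sex difference the main 0 became 0 to 34 and 0 to 3266. In the non-injured libraries 0 genes differed by day (0 to 47 and 0 to 8) and 7 by sex (0 to 410 and 7 to 1163). Kcna3 held 0 to 389 counts per library. In the day 14 female pair it held 8 against 0 and Kcnn4 158 against 8, so no ratio is given there.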
